A study of Mus musculus with 10 samples.

Results

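The immediate early transcription factors described here are 7 genes, Fos, Jun, Myc, Cebpb, Egr1, Egr2 and Egr3. They were taken by symbol from the gene expression table of melanoma tumors grown in Siah2 wild-type (WT) and Siah2 KO mice, and all 7 were among its 770 genes. Tumors were grown from YUMMER 1.7 cells, a BRAF-mutant mouse melanoma line that lacks Cdkn2a and carries many somatic mutations, injected under the skin of 5 WT and 5 Siah2 KO mice. The host was wild type or lacked Siah2, a ubiquitin ligase, in all of its cells, while the injected cells were the same in both groups. The mice were of the C57BL/6 background and male, and were given as 5 to 7 weeks old in the growth experiment and as 6 to 10 weeks old for the study as a whole. Tumors were collected on day 11 by the sample labels, although the study's text also gives day 10. The series' own design line gives Yumm1.5 cells and Rnf5-/- mice instead, so the groups rest on the labels of the single samples. From each tumor 100 ng of RNA was hybridized to the NanoString mouse PanCancer Immune Profiling panel, in which molecules bound by a gene's probe are counted one by one. Values are normalized counts, scaled by the authors to 20 reference genes in each tumor. Each tumor is 1 mixture of injected and host cells, so that fewer cells of a type and less RNA per cell cannot be told apart. The panel has no probe for Siah2, and the genotype could not be checked in these data. Of the 3 melanoma cell markers used, Mcam and Cspg4 were measured at means of 121 and 198 normalized counts with Siah2 KO hosts, whereas S100b was near the floor there, with a mean of 1.72.

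Immediate early genes are switched on within minutes of a growth factor, cytokine, antigen or stress signal, with no need for new protein. MAP kinases and cAMP or calcium signals act on factors already bound at their promoters, and the early proteins then drive later genes. FOS and JUN pair into the AP-1 factor, EGR1, EGR2 and EGR3 are related zinc finger factors, C/EBPβ (the product of Cebpb) drives inflammatory genes in myeloid cells, and MYC drives growth and division. In T cells EGR2 and EGR3 are known as brakes on activation, and FOS, JUN and NFAT act together on cytokine genes.

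Promoter sequences are shown for Fos, Jun, Cebpb and Egr2, the members for which one was available. Whether their motifs bear on the change of a member was not tested. The sequences are RefSeq starts of the GRCm38.p6 build, 250 bases before the start and 50 after it, 5′ to 3′ on the gene's strand. A promoter sequence was found for 4 of the 7 members, and Egr1, Egr3 and Myc have none here. Capitals mark matches to a CArG box, the site of serum response factor, or to TGACG, the core of the cAMP response element (CRE). The latter was searched after the sequences had been seen and overlaps the full CRE.
Fos, chr12:85473640-85473939, plus strand: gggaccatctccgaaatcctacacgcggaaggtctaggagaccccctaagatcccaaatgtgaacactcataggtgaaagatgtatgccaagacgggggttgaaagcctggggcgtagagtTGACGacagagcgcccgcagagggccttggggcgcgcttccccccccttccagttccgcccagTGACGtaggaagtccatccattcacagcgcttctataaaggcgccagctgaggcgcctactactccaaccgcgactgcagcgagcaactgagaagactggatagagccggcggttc
Jun, chr4:95052173-95052472, minus strand: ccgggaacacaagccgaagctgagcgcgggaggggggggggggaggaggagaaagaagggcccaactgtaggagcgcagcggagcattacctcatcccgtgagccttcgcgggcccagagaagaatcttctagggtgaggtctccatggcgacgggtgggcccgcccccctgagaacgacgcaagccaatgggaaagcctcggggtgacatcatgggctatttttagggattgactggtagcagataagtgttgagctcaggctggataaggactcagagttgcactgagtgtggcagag
Cebpb, chr2:167688665-167688964, plus strand: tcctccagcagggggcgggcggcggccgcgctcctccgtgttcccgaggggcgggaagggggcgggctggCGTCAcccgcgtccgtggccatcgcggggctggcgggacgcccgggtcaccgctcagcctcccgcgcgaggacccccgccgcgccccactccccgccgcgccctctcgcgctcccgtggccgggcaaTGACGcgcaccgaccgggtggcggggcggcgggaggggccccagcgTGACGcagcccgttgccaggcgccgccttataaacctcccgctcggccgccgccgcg
Egr2, chr10:67537619-67537918, plus strand: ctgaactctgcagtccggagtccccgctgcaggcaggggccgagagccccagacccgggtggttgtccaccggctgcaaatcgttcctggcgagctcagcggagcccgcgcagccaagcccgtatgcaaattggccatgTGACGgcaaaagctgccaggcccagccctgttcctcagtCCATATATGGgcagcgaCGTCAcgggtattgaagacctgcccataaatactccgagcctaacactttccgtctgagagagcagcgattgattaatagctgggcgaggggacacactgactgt

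On both strands, TGACG occurred at positions -129 and -66 of the Fos promoter, counted from the start, and at -180 (as CGTCA on the shown strand), -53 and -7 of the Cebpb promoter. The Egr2 window shown has it at -111 and, as CGTCA, at -55. It was present in 20.8% of 32851 promoters of the same length. The Egr2 start shown, 1 of 5 listed for this gene, was chosen for its CArG box at -72, a motif held by 1.63% of promoters. In 3 of the 5 listed starts the same CCATATATGG was found, and another has CCTTTTTTGG. No letters of the Jun window matched, and none of these 4 windows matched the CRE TGACGTCA (1.79% of promoters), the AP-1 site TGANTCA (7.81%), the EGR site GCGNGGGCG (5.55%), the E-box CACGTG (7.15%) or the C/EBP site TTGCNNAA (10.8%). Another of the Egr2 starts holds an E-box. Only exact matches to these patterns were searched. Variants such as tgacatca in the Jun window, which is close to TGACGTCA, were not counted. Sites beyond these windows were not searched, so a motif absent from a window, such as a CArG box for Fos, may lie outside it.

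Fos, Cebpb, Egr1 and Myc were higher in Siah2 KO tumors and Egr3 was lower, while Jun was higher by no more than the typical gene of the panel and Egr2 was close to background. In limma, with adjustment over all 770 genes, 5 of the 7 members were higher at an adjusted p under 0.05, where 31.3% of all genes were higher, and 1 was lower, where 9.74% of all genes were lower. The groups did not overlap for 3 members that were higher (24.5% of all genes) and for 1 that was lower (7.01% of all genes). The median log2 fold change was 0.52 over the 7 members and 0.24 over all genes. The share of higher calls over all genes depended on the scaling, with 241 higher and 75 lower as deposited, 163 and 152 when tumors were scaled to the same median, 153 and 181 after quantile normalization, and 78 and 262 relative to the leukocyte genes of each tumor.

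**Figure D1:**
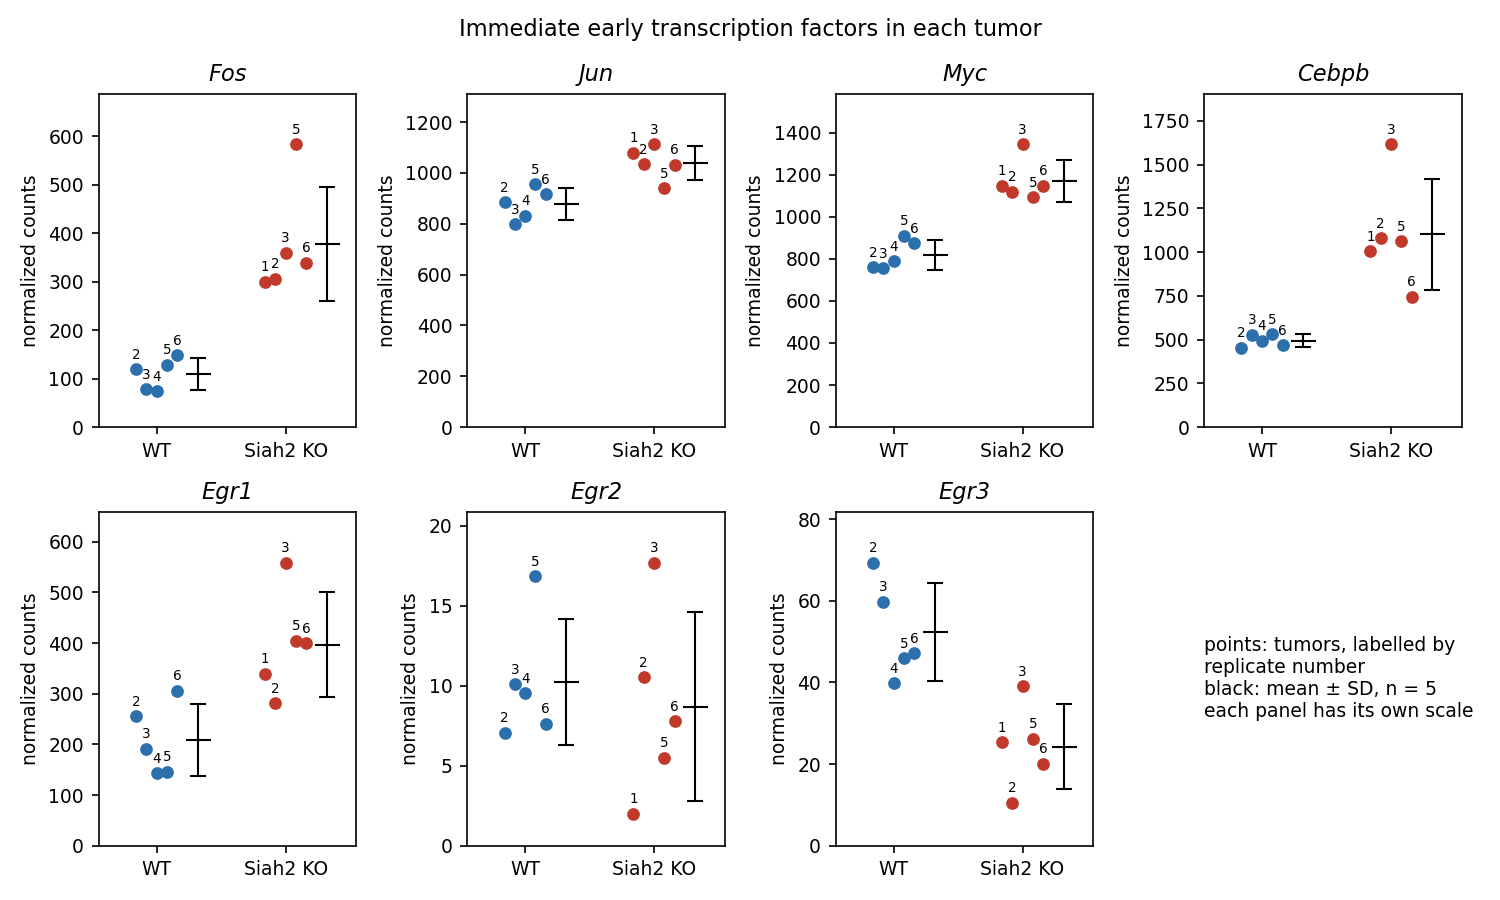
Normalized counts of the 7 members in 5 WT (blue) and 5 Siah2 KO (red) tumors, each point a tumor labelled with its replicate number, with the mean and SD in black. Each panel starts at 0 and has its own scale, and the groups do not overlap for Fos, Myc, Cebpb and Egr3.

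Fos, which encodes the inducible partner of the AP-1 pair, changed most among the members. It had 119, 78.3, 73.8, 129 and 148 normalized counts in WT replicates 2 to 6 and 300.4, 307, 359.9, 583 and 339.5 in Siah2 KO replicates 1, 2, 3, 5 and 6. Every Siah2 KO tumor was at least at 300.4 and no WT tumor was above 148. The log2 fold change was 1.78 (standard error 0.24, adjusted p = 0.00057 from limma), a 3.44-fold difference, and the exact permutation test gave 0.0079, the smallest two-sided p that 252 divisions of the tumors allow. Fos was in rank 21 of the 770 genes from the highest log2 fold change. Siah2 KO replicate 5 stood above the other 4, and without it the log2 fold change was 1.61 (adjusted p = 0.00096).

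Jun, the other AP-1 partner, was abundant in all tumors and moved little. Its values were 884, 799, 832, 957 and 918 normalized counts in WT replicates 2 to 6 and 1080.3, 1035, 1113, 939 and 1032 in Siah2 KO replicates 1, 2, 3, 5 and 6. Siah2 KO replicate 5, the tumor with the most Fos, had the least Jun of its group and lay within the WT range. The log2 fold change was 0.24, with a standard error of 0.08 and a limma adjusted p of 0.041. That is the median over all genes, and Jun was in rank 378 of 770. The call was lost in 8 of the 10 fits that left out 1 tumor, for example without WT replicate 3 (0.21, adjusted p = 0.099), and it was kept without Siah2 KO replicate 5 or WT replicate 5. With median scaling the log2 fold change was -0.02 (adjusted p = 0.90).

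Cebpb encodes C/EBPβ, a factor of macrophages and neutrophils that drives the acute inflammatory program. It was at 453, 528, 494, 532 and 467 normalized counts in the WT tumors, a narrow range, and at 1006, 1079.6, 1615, 1062 and 745 in Siah2 KO replicates 1, 2, 3, 5 and 6. Even the lowest knockout value exceeded the whole WT range. The SD was 28.8% of the mean with Siah2 KO hosts and 7.11% with WT hosts, and the spread between Siah2 KO tumors came from replicate 3 above and replicate 6 below the other 3. The log2 fold change was 1.11 (standard error 0.18, adjusted p = 0.0011 from limma), or 2.16-fold, with an exact permutation p of 0.0079. It was in rank 64 from the highest, and its log2 fold change was 0.96 without Siah2 KO replicate 3.

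Myc had a smaller difference with a narrow spread. WT tumors ran from 755 to 910.4 normalized counts around a median of 789, and tumors of Siah2 KO mice from 1092 to 1344 around a median of 1147. No tumor of either group lay in the range of the other, and Siah2 KO replicate 3 was the highest. The log2 fold change was 0.52 (standard error 0.09, adjusted p = 0.0019 from limma), a 1.43-fold difference with an exact permutation p of 0.0079. Unlike the calls for Fos and Cebpb, this call depended on the scaling, since the log2 fold change was 0.25 with median scaling (adjusted p = 0.060) and -0.04 relative to leukocyte genes (adjusted p = 0.85).

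The 3 Egr genes did not share a direction. Egr1, a broad sensor of growth factor and MAP kinase signals, had 255, 191, 143, 146 and 305 normalized counts in WT replicates 2 to 6 and 339, 281, 558, 404 and 399 in Siah2 KO replicates 1, 2, 3, 5 and 6. The groups overlapped, as 4 of the 5 knockout hosts exceeded the WT maximum and replicate 2 did not. The log2 fold change was 0.95 (standard error 0.25, adjusted p = 0.012 from limma), with an exact permutation p of 0.016. It was 0.82 (adjusted p = 0.029) without Siah2 KO replicate 3, the highest tumor. The call depended on the scaling and was lost relative to leukocyte genes (0.40, adjusted p = 0.19) and with positive control scaling (0.79, adjusted p = 0.14). With the replicate number as a block, in 8 tumors, it was lost as well (0.88, limma adjusted p = 0.080).

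Egr3, induced by antigen receptor signals in T cells and a restraint on their activation, was lower. It had 69.3, 59.8, 39.8, 45.9 and 47.1 normalized counts in WT replicates 2 to 6 and 25.3, 10.5, 39.1, 26.2 and 20.1 in Siah2 KO replicates 1, 2, 3, 5 and 6. The groups did not overlap, but only just, since Siah2 KO replicate 3 at 39.1 and WT replicate 4 at 39.8 nearly touched. On the log2 scale Egr3 changed by -1.16 with a standard error of 0.30 (limma, adjusted p = 0.011), or 2.24-fold lower, and the exact permutation p was 0.0079. Egr3 was in rank 17 of the 770 genes from the lowest log2 fold change. Without Siah2 KO replicate 2, the lowest tumor, the log2 fold change of Egr3 was -0.91 (limma adjusted p = 0.010). Without replicate 3 it was -1.36 (adjusted p = 0.0051). The largest adjusted p of the fits without 1 tumor was 0.029. With the replicate number as a block, in 8 tumors, Egr3 was at -1.30 and did not pass (limma adjusted p = 0.051).

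Egr2, a close relative of Egr3, was near the limit of the assay. WT tumors had 7.06 to 16.9 normalized counts (median 9.52), and Siah2 KO tumors 2.0 to 17.7 (median 7.77). The groups overlapped fully, and in 7 of 10 tumors Egr2 was above the highest of the 8 negative control probes scaled by that tumor's factor. The log2 fold change was -0.40 (adjusted p = 0.50 from limma) with a 95% interval from -1.37 to 0.58, so that neither a decrease as large as that of Egr3 nor no change lies outside it.

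Siah2 KO replicate 3 had the highest value of its group for 6 of the 7 members, all but Fos. It was also the highest Siah2 KO tumor for 30.6% of all genes, and replicate 5 for 37.0%. Among WT tumors replicate 5 was highest for 4 members and for 35.7% of all genes. After normalization the summed counts of the 770 genes ran from 512955 to 585366 for WT hosts and from 575773 to 741789 for Siah2 KO hosts, where replicate 3 had 726023 and replicate 5 had 741789. Divided by a scaling factor estimated for each tumor from the steps between its low values, they ran from 443503 to 578695 for WT hosts. For Siah2 KO hosts they then ran from 382885 to 581616. Whether the higher normalized sums bear on the members was not tested beyond the scalings given here.

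To compare the members with each other, the log2 ratio of 2 members was taken within each tumor, where the scaling of the tumor drops out apart from the added count of 1. Probes differ in efficiency, so only the difference of a ratio between the groups was read and not the ratio itself. Of 21 pairs, 13 differed between the groups at an adjusted p under 0.05 by a two-sided exact permutation test with Benjamini-Hochberg adjustment over the pairs. Pairs that share a gene are not independent, and the share over all pairs of panel genes was not computed. Of all single genes 31.3% were higher and 9.74% lower in limma. The 13 include the ratios of Egr2 to Fos and to Cebpb, although Egr2 was close to background. Egr3 was lower against each of Fos, Jun, Myc, Cebpb and Egr1, with differences from -2.95 log2 units against Fos to -1.41 against Jun, all at an exact adjusted p of 0.015. Within the Egr family the ratio of Egr1 to Egr3 was higher by 2.12 in Siah2 KO tumors, at 4.05 ± 0.38 against 1.93 ± 0.42 log2 units (SD, n = 5 each, exact permutation p = 0.0079).

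The AP-1 partners separated as well. The log2 ratio of Fos to Jun was -1.50 ± 0.47 with a Siah2 KO host and -3.04 ± 0.36 with a WT host (SD, n = 5 each), which differ by 1.54 without overlap (exact permutation p = 0.0079, adjusted p = 0.015). Fos also rose against Myc, by 1.27, with the same exact p. Against Cebpb the difference was 0.67 (exact adjusted p = 0.12). The ratio of Egr1 to Fos differed by -0.83 (exact adjusted p = 0.038), with an adjusted p over 0.05 in 8 of 10 repeats that left out 1 tumor, up to 0.077. Jun and Myc, both with little spread, differed by -0.27 on this scale, as the ratio of Jun to Myc, without overlap, with Myc higher against Jun in every Siah2 KO tumor. For Egr1 over Cebpb the difference was -0.16 (exact p = 0.62), with overlapping groups. Egr2 and Egr3 differed by 0.77 (exact p = 0.21).

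**Figure D2:**
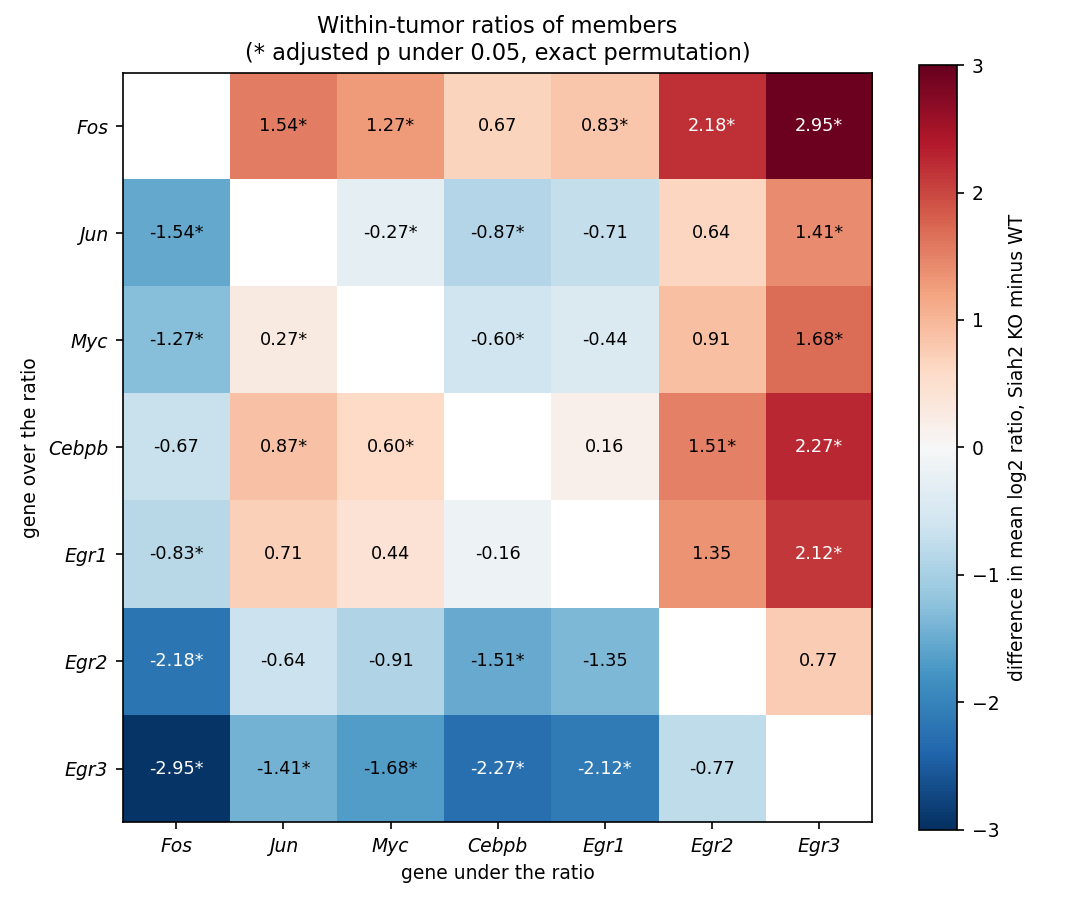
Difference between Siah2 KO and WT tumors in the mean within-tumor log2 ratio of the gene on the vertical axis over the gene on the horizontal axis, with red for a ratio higher in Siah2 KO tumors and stars for an adjusted p under 0.05. The Fos row is positive throughout and the Egr3 row negative throughout, down to -2.95 against Fos.

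Levels of cell type markers moved between the groups beside the members. All 4 NK cell markers, 7 of 8 leukocyte markers and 7 of 11 T cell markers were higher. Over all genes 31.3% were higher and 9.74% lower. The marker calls are on the deposited scaling, and other scalings were not examined for them. Summed over its markers, the leukocyte level ran from 6860.0 to 10324 normalized counts with Siah2 KO hosts and from 4643 to 5710.1 with WT hosts, and the T cell level from 927 to 1637 and from 704 to 924. The 4 NK cell markers summed to 1311 to 2009 and 796 to 1035, in the same order of hosts. Of 9 macrophage markers 3 were higher and Mrc1 was lower, with sums of 29267 to 50167 and 27423 to 35462. Of 9 neutrophil markers Csf3r and Trem1 were higher, with sums of 354 to 1426 and 474 to 769, and Cxcr2, Camp, Ltf, Mpo and Elane had means under 20. Fibroblast markers were lower, 4 of 5, with sums of 10976 to 12818 against 17125 to 22093, and so were 2 of the 3 melanoma markers, with sums of 224 to 405 and 438 to 594. B cell, dendritic cell and endothelial markers had 1, 1 and 1 higher, the last beside 2 lower, and of the B cell markers only Blnk had a mean over 20.

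Expressed relative to the median of the leukocyte markers in the same tumor, Fos was still higher, by 1.23 on the log2 scale, and Cebpb by 0.56 (limma adjusted p = 0.00041 and 0.031), and Egr3 was lower, at -1.72 (adjusted p = 0.00074). On this scale Egr1 was at 0.40 (adjusted p = 0.19), Myc at -0.04 and Jun at -0.31 (adjusted p = 0.13). Those 3 members did not pass relative to leukocytes, where the median over all genes was at -0.32. With the tumors scaled to the positive control probes in place of the reference genes, Fos was at 1.62, Cebpb at 0.95 and Egr3 at -1.31, each past the threshold. Egr1 at 0.79, Myc at 0.35 and Jun at 0.08 did not pass there (limma adjusted p = 0.14, 0.59 and 0.95). The part of the cell mixture in the change of any member was not tested.

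**Figure D3:**
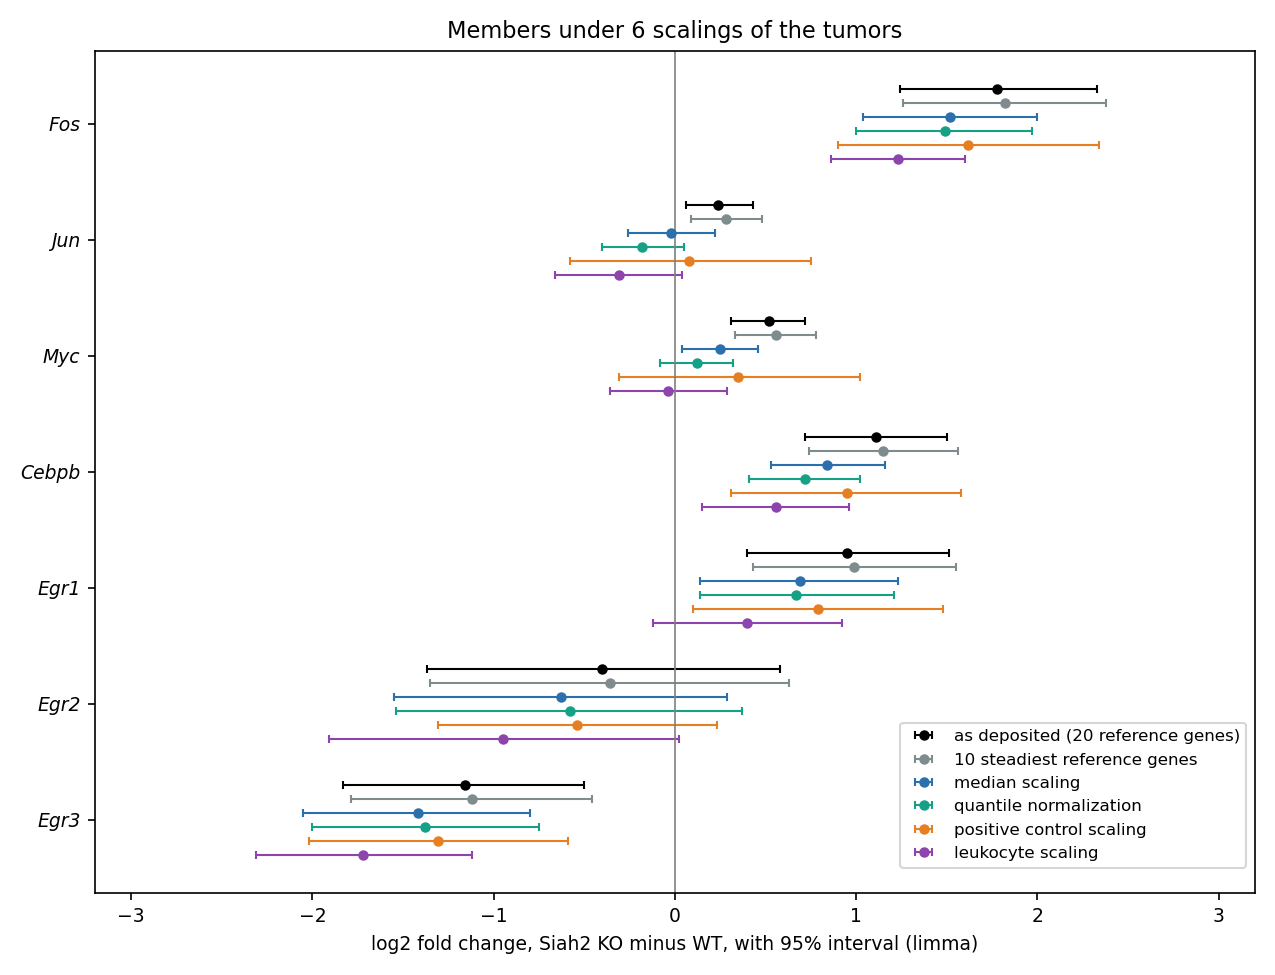
Log2 fold change of each member, Siah2 KO minus WT, with its 95% interval from limma, under 6 ways of scaling the tumors. The point estimates of Fos, Cebpb and Egr1 are above 0 and that of Egr3 below it under each scaling, with the Egr1 interval reaching from -0.12 to 0.92 relative to leukocytes, while Jun changes sign with median, quantile and leukocyte scaling and Myc with leukocyte scaling.

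Of 20 kinases and promoter factors known to switch on immediate early genes, 2 were higher and 1 was lower, and their median log2 fold change was 0.04, against 0.24 over all genes. Map2k1, which encodes the MEK1 kinase above ERK, rose by 0.37 (818 ± 56.1 to 1058 ± 65.6 normalized counts, SD, n = 5 each, limma adjusted p = 0.0050), and Map3k1 rose by 0.48 (adjusted p = 0.045). Elk1, a partner of serum response factor at CArG boxes, fell by 0.67 (adjusted p = 0.049). Its means were 6.49 and 10.3 normalized counts in Siah2 KO and WT tumors, close to background. The highest scaled negative control reached 15.8 in Siah2 KO replicate 5 and 8.92 in WT replicate 5, so the Elk1 call is uncertain. The numbers of called genes turned with the scaling, with 0 higher and 9 lower with median scaling and 0 and 12 with quantile normalization. Relative to leukocytes they were 0 and 14, and with positive control scaling 0 and 0. Mapk3, which encodes an ERK kinase, was at -0.17 and did not pass. Of 7 other bZIP factors, the structural class of FOS, JUN and C/EBPβ, Creb5 alone was higher, by 0.88 (adjusted p = 0.00018). In that list 1 gene was higher and 1 lower with median scaling, 1 and 3 after quantile normalization, 0 and 3 relative to leukocytes and 0 and 0 with positive control scaling, so that the Creb5 call was lost under the last 2. None of the 4 NFAT genes was called, with log2 fold changes between -0.14 and 0.19, while 1 was lower after quantile normalization and 2 were lower relative to leukocytes.

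Of 24 rapidly induced secreted and surface genes 14 were higher and 0 lower, with a median of 0.86, where 31.3% of all genes were higher. The largest differences were in Cxcl2 (2.49), a neutrophil chemokine, Ptgs2 (2.28), the inducible cyclooxygenase, and Ccl4 (2.20), and for Cxcl2 the WT tumors, at 2.10 ± 0.946 normalized counts (SD, n = 5), lay near the floor. Il6, Csf2, Csf3, Cd69 and Icam1 did not pass. Csf3, at 4.50 with Siah2 KO and 1.53 with WT hosts, was at the floor in 5 tumors. Il6 was at 16.4 ± 15.7 and 12.5 ± 9.99 normalized counts (SD, n = 5 each), so little can be read from these 2 genes. Of 9 known C/EBPβ targets 5 were higher, led by Nos2 (4.09), Ptgs2 and Arg1 (2.06, adjusted p = 0.014 from limma), which encode inducible nitric oxide synthase, cyclooxygenase and arginase. Of 9 known AP-1 targets 5 were higher, led by Ptgs2, Ccl2 (1.53) and Cxcl1 (1.05), and Mmp9, a matrix protease, was lower, falling to 27.1 ± 15.1 normalized counts from 68.5 ± 8.33 with a WT host (SD, n = 5 each, log2 fold change -1.49, adjusted p = 0.0085). Of 6 known Egr targets 3 were higher, Thbs1 (1.63), Tnf (1.52) and Fasl (1.33), the last a death ligand that EGR2 and EGR3 can induce in T cells and that moved opposite to Egr3. The counts for C/EBPβ and Egr targets were the same with median, quantile and leukocyte scaling, while relative to leukocytes 2 AP-1 targets were higher and 1 lower, and 8 of the rapidly induced genes were higher and 2 lower. With positive control scaling 4 C/EBPβ, 3 Egr and 2 AP-1 targets and 8 rapidly induced genes were higher, and 1 AP-1 target was lower. The lists share genes such as Ptgs2, Tnf and Icam1 and are not independent of each other.

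The feedback genes divided. Socs1, Tnfaip3 and Socs3, brakes on cytokine and NF-κB signaling, were higher by 0.98, 0.89 and 0.69 on the log2 scale, with limma adjusted p between 0.0016 and 0.0083. Dusp4 and Dusp6, brakes on ERK that are themselves induced by it, were at -0.09 and 0.04 with adjusted p of 0.61 and 0.72, and Nfkbia was at 0.24. Relative to leukocytes 0 of these feedback genes were higher and 2 lower, and with positive control scaling 0 and 0. Of 8 genes linked to Myc and the cell cycle 2 were higher, where 31.3% of all genes were higher. The median log2 fold change of this list was -0.06, against 0.24 over all genes. Tfrc, the transferrin receptor and a known MYC target, rose by 0.75 (limma adjusted p = 0.0012) and Hif1a by 0.63 (adjusted p = 0.0018). The cell division genes Cdk1 and Birc5 were at -0.35 and -0.13 and did not pass. Cdk1 was low, at 15.4 and 19.4 normalized counts in Siah2 KO and WT tumors. With median scaling 2 genes of this list were higher and 4 lower, relative to leukocytes 0 and 4, and with positive control scaling 0 and 0.

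**Figure D4:**
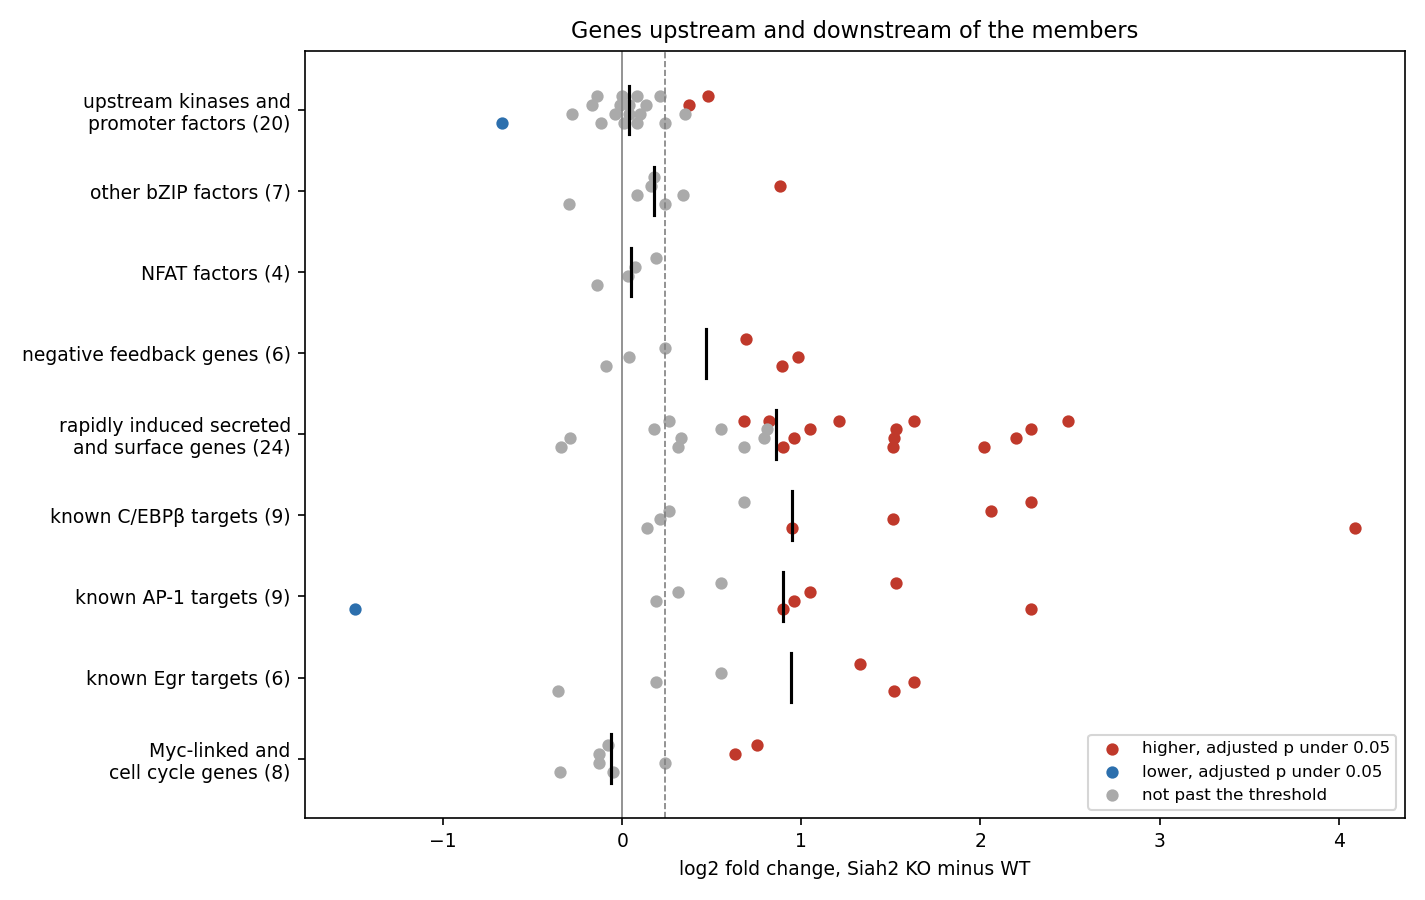
Log2 fold change of each gene, Siah2 KO minus WT, in 9 lists of genes that act above or below the members, with the number of genes in parentheses, colored by the limma call and with a black bar at the list's median. The solid line is 0 and the dashed line is the median of all genes, 0.24, which lies above the median of the upstream list (0.04) and below those of the C/EBPβ, AP-1 and Egr target lists (0.95, 0.90 and 0.94).

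The genes whose profile over the 10 tumors was most like that of a member were found by the root mean square difference of log2 values, each gene centered on its mean. The difference between the groups is part of this distance, so a direction shared with the member follows from the choice and is not a separate result. Genes with little spread lie close to each other on it. For Fos these were Slc11a1 (0.197), a metal transporter of phagocytes, Klra2 (0.260) and Tnf (0.262), all of them higher in Siah2 KO tumors. For Cebpb they were H2-T23 (0.192), Tnfaip3 (0.200) and Lgals3 (0.203), and for Egr1 the integrin gene Itgax (0.214), Klra7 (0.275) and Ebi3 (0.294). Jun was close to Atf1 (0.0825), another bZIP factor, and Map2k1 (0.0831), and Myc to Map2k1 (0.0899), Cd80 (0.111) and Angpt2 (0.112). Egr3 lay nearest to Lrrn3 (0.279), Ccl1 (0.370) and Cspg4 (0.416), all lower in Siah2 KO tumors, among them the chemokine Ccl1 at 22.4 and 53.5 normalized counts and the melanoma marker Cspg4. For Egr2 the nearest genes, Ifna4 (0.467), Il7 (0.480) and Ceacam1 (0.516), were low as well, the first 2 with means under 5 normalized counts. Among the members themselves Jun and Myc, both with little spread, were the closest pair (0.149).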

How the data were processed

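Gene expression was measured in 10 YUMMER 1.7 tumors, 5 from WT and 5 from Siah2 KO mice, with groups and replicate numbers taken from the sample labels. Probe signal was deposited by the authors as normalized counts, after quality control in nSolver 2.0 and scaling by the geometric mean over 20 reference genes. The low values rise in equal steps from a floor, as they would after a background constant is subtracted before scaling, a step not given in the sources used here. Whole raw counts could not be recovered for that reason. The scaling factor of each tumor was estimated from the size of the steps. The sums before scaling, the positive control scaling and the scaled negative controls rest on that estimate.

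The 770 endogenous and reference probes were converted to log2(value + 1) and compared, Siah2 KO minus WT, with limma 3.58.1 in R 4.3.3, two-sided, with Benjamini-Hochberg adjustment over all 770. Adding 1 understates the change of low genes such as Egr2. Exact permutation tests used all 252 divisions of the tumors, so 0.0079 is their smallest two-sided p. The fit was tested on simulated data. Nothing says whether tumors shared a cage or batch. The limma p-values set the difference between the groups against the spread between these tumors. No 2 tumors of a group held the same values for more than 5.71% of probes. Figures were drawn in Python 3.11.15 (matplotlib 3.10.9).

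Members, gene lists and tests were chosen with earlier results of these data known. Named genes are the members, the 3 nearest profiles of each (for Jun, 1 of them is not reported here), up to 3 called genes per list and direction with the largest log2 fold change, and marker genes, while Mapk3, Il6, Csf2, Csf3, Cd69, Icam1, Dusp4, Dusp6, Nfkbia, Cdk1 and Birc5 were chosen after their values were seen. The alternatives were 5 other scalings, 4 treatments of low values, endogenous probes only, 3 other tests, a replicate block with the same tumors unblocked, and leaving out each tumor.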

Additional observations from a re-analysis of the deposited data

Results flagged for a closer look

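In 34 groups of 5 tumors, those of the 7 members and the 10 marker sums on the log2 scale, 3 tumors stood apart from the rest of their group by Dixon's test, which chance alone gives in about 1 of 20 groups. For Fos, Siah2 KO replicate 5, at 583 normalized counts, had a gap to the next tumor of 0.728 of the group's range. For Myc, Siah2 KO replicate 3, at 1344 normalized counts, had a gap of 0.760 of the range. For the summed endothelial markers, Siah2 KO replicate 6, at 676 normalized counts, had a gap of 0.777 of the range below the other 4. Without the tumor that stood apart, the log2 fold change of Fos was 1.61 and that of Myc was 0.46 (limma adjusted p = 0.00096 and 0.0042).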

How the results depend on the processing

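Of the 15 alternatives beside leaving out tumors, Fos and Cebpb kept their direction and call in all 15 and in all 10 fits without 1 tumor (log2 fold changes 1.23 to 1.82 and 0.56 to 1.15 over the 15), Egr3 in 14 and Egr1 in 12. Relative to leukocytes Egr1 was at 0.40, Myc at -0.04 and Jun at -0.31. With positive control scaling they were at 0.79, 0.35 and 0.08. Median scaling gave Myc 0.25 and Jun -0.02, and quantile normalization 0.12 and -0.18. Without 1 tumor Jun was at 0.21 to 0.28 and called in 2 of 10 fits. The 6 members called became 3 with leukocyte scaling, 3 with positive control scaling and 3 with the replicate block. Over all genes 316 calls became 95 with positive control scaling (60 higher, 35 lower). Genes called in the pathway lists numbered 28 (26 higher, 2 lower), 46 after quantile normalization (21 and 25) and 12 with positive control scaling. The difference of Egr1 over Cebpb reached 0.02 without WT replicate 6 and ranged from -0.30 to 0.02 over the tumors left out. In each case the cause was not tested.

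The replicate numbers occur in both groups for 8 tumors, whose same-numbered deviations correlated at 0.04, 0.05, 0.17 and 0.35. The main fit did not take the number as a pairing. Every tumor correlated best with its own number, and whether the numbers mark pairs was not tested. With the replicate block Egr1 was at 0.88, Egr3 at -1.30 and Jun at 0.21 (limma adjusted p = 0.080, 0.051 and 0.24), and Fos, Cebpb and Myc were still called. In the same 8 tumors with no block Egr1 and Egr3 were called (adjusted p = 0.045 and 0.026) and Jun was at 0.21 (adjusted p = 0.17). A count model was not run, as whole counts could not be recovered. With values under 20 raised to 20, or genes with a mean under 20 left out, Egr2 had no value, and its changes cannot be read at this depth.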
